A study of Arabidopsis thaliana with 18 samples.

Results

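The genes described here were those whose transcripts fell in systemic leaves of wild-type *Arabidopsis thaliana* after induction of systemic acquired resistance (SAR), and the question was what the same transcripts did in 2 receptor mutants. SAR is an immune state in which leaves far from an infected leaf become resistant. In such leaves defence genes are switched on, while many genes for growth, the cell wall and photosynthesis are expressed less. LecRK-VI.2 is a lectin receptor kinase of the plasma membrane, and BAK1 is a co-receptor kinase shared by many immune and growth receptors. The members were chosen by their measured values in the wild type: the mean of the 3 *Psm* arrays had to be at least 1 log2 unit below the mean of the 3 MgCl2 arrays, and all 3 *Psm* values had to lie below all 3 MgCl2 values. This rule gave 151 of 22746 probe sets, the units by which the array reports transcripts. Genes of the cytochrome P450 family and 8 listed genes were to be left out, which removed 5 probe sets and left 146 members. Of these, 61 were assigned to 1 gene by the platform annotation, 1 to several genes and 84 to none, and the last are given by probe set number.

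Plants of 3 genotypes were compared: the wild type (Col-0), *bak1-5*, which carries a dominant-negative allele of *BAK1*, and *lecrk-VI.2-2*, in which a T-DNA insertion lowers *LecRK-VI.2* expression. The mutations are present in all tissues, and each mutant is represented by a single line in the Col-0 background. On 4-week-old plants, 3 lower leaves were infiltrated with 10 mM MgCl2 (−SAR) or with the bacterium *Pseudomonas syringae* pv. *maculicola* (*Psm*) in 10 mM MgCl2 at an OD600 of 0.002 (+SAR), and untreated systemic leaves were taken 48 hr later. There were 3 biological samples in each of 6 groups, each sample being a pool from 12 plants, and each was hybridised to 1 array.

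All levels are log2 intensities, so a difference of −1 is a 2-fold reduction, and changes are *Psm* minus MgCl2. The words "with SAR" stand for the *Psm* treatment in every genotype. The study reports that the systemic resistance it induces was compromised in both mutants. The arrays of all groups were fitted together with limma, errors of changes are standard errors of that fit (n = 3 arrays per group), and a change was called at a *q* value of 0.05 or less, adjusted over all 22746 probe sets. Because wild-type values chose the members, their change in the wild type is a description without a test, and so is any difference between a mutant and the wild type. The 3 within-genotype comparisons share no arrays. In whole leaves, less RNA per cell and fewer cells of a type cannot be told apart.

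Some arrays stood apart. Between 141 and 156 probe sets reached a level of 10 on 16 of the arrays, against 118 on *lecrk-VI.2-2* MgCl2 replicate 2 and 126 on *lecrk-VI.2-2* *Psm* replicate 3. Wild-type *Psm* replicate 1 had the lowest levels of the members. The leaf gene *RCA*, which encodes Rubisco activase, was at 12.7 in the wild type without SAR. The probe sets of *LecRK-VI.2* and *BAK1* were not named by the annotation, so the mutant labels were not checked here. Of the cell type markers listed, 4 for guard cells and stomatal development, 2 for epidermis and trichomes, 3 for dividing cells and 2 for roots were measured. All of these had group means below 6. The 1 marker of vascular tissue, the sucrose carrier *SWEET11*, lay between 7.70 and 8.08 in the 6 groups. *STOMAGEN*, whose peptide promotes stomata, changed by −0.45 in the wild type (limma, q = 0.00595). The others of its list, *FAMA*, *SPCH* and *MUTE*, did not pass the test there. These 4 genes do not measure the number of guard cells. The part of cell composition in the results was not tested.

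In the wild type the members changed by a median of −1.25, a 2.37-fold reduction, and by −3.59 to −1.002 at the extremes. Over all probe sets the median change was −0.04. Without SAR the members were brighter than most of the array, with a median level of 7.85 against 4.56 for all probe sets. The spread between wild-type *Psm* arrays was considerable. Relative to the wild-type MgCl2 mean, the median member stood at −1.57 on *Psm* replicate 1, at −0.99 on replicate 2 and at −1.15 on replicate 3. When the rule was applied without *Psm* replicate 1, 96 probe sets met it, 93 of which were among the 146. All 146 members had a q value of 0.05 or less in the wild type, against 5.54% of all probe sets that did so in this direction, which the rule itself brings about.

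**Figure D1:**
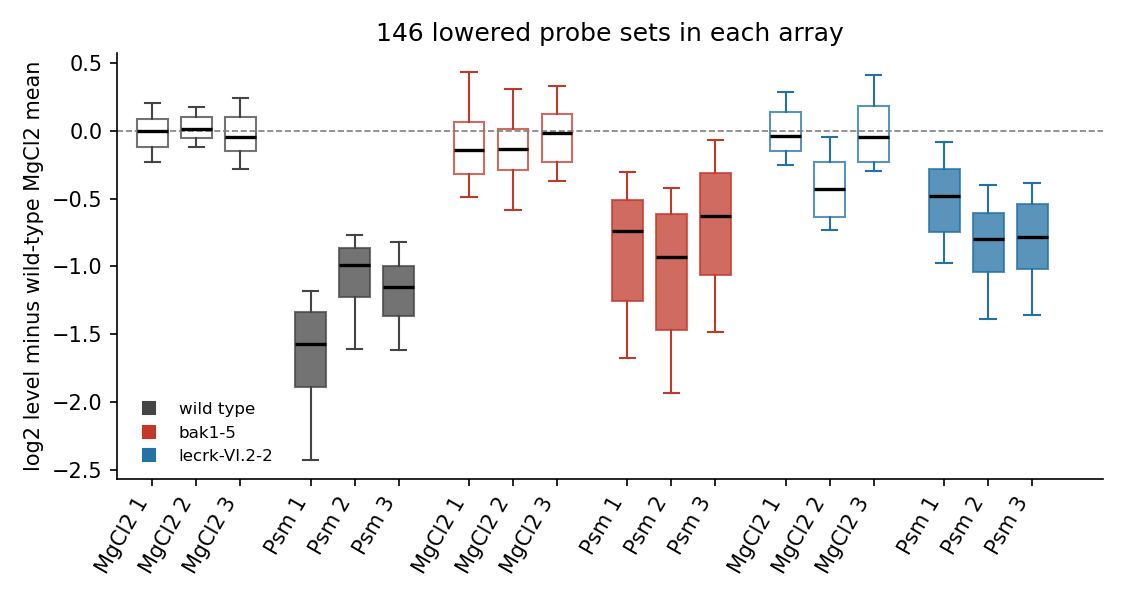
Log2 level of the 146 members in each of the 18 arrays, as the difference from the member's wild-type MgCl2 mean. Boxes span the middle 50% of members with the median as a line, whiskers run from the 10th to the 90th percentile, and filled boxes are *Psm* arrays. The medians are lowest in the wild-type *Psm* arrays, whose low values the rule required. The median of *lecrk-VI.2-2* MgCl2 replicate 2 lies at −0.43, below the other MgCl2 arrays.

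Most members were also below 0 in both mutants, and more were called lower in *bak1-5*. The difference between these counts was not tested, and with array weights they were 110 and 103. The share of all probe sets called with array weights was not computed. In *bak1-5* the change was below 0 in 141 of 146 members, with a median of −0.59, a 1.51-fold reduction, and 74 members (50.7%) were called lower, against 3.01% of all probe sets. In *lecrk-VI.2-2* the change was below 0 in 143 members, with a median of −0.49, a 1.41-fold reduction, and 35 members (24.0%) were called lower, against 0.484% of all probe sets. Over all probe sets the median change was −0.04 for *bak1-5*, whereas that of *lecrk-VI.2-2* was −0.001. All 35 members called in *lecrk-VI.2-2* were also among the 74 called in *bak1-5*, of which they made up 47.3%, and 72 members were called in neither mutant. No member was called higher with SAR in *bak1-5* or *lecrk-VI.2-2* by limma, in which 4.08% and 0.607% of all probe sets were.

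The separation of single arrays gave the same order. All 3 *Psm* values lay below all 3 MgCl2 values for 110 members (75.3%) in *bak1-5*, against 15.7% of all probe sets, and for 75 members (51.4%) in *lecrk-VI.2-2*, against 4.94%. With a reduction of at least 2-fold required in addition to the *q* value, 39 members were called in *bak1-5*, against 0.532% of all probe sets, and 20 in *lecrk-VI.2-2*, against 0.114%.

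The count in *lecrk-VI.2-2* depended on single arrays. It was 54 without MgCl2 replicate 2, 23 without MgCl2 replicate 1, 23 without MgCl2 replicate 3 and 19 without *Psm* replicate 2. Without both arrays with few bright probe sets, MgCl2 replicate 2 and *Psm* replicate 3, it was 34. The median member of MgCl2 replicate 2 stood at −0.43 relative to the wild-type MgCl2 mean, against −0.04 and −0.05 in the other 2 *lecrk-VI.2-2* MgCl2 arrays. In the *Psm* arrays of this mutant the medians were −0.48, −0.80 and −0.78, so that replicate 1 of *Psm* and replicate 2 of MgCl2 nearly met. In *bak1-5* the medians were −0.14, −0.13 and −0.02 with MgCl2 and −0.74, −0.93 and −0.63 with *Psm*, with no overlap between treatments.

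The reductions were not uniform across the members. The largest in both mutants belonged to 248419_at, which the annotation does not name. Its level in *bak1-5* was 10.28, 10.17 and 10.21 with MgCl2 and 6.76, 6.49 and 7.15 with *Psm*, a change of −3.42 ± 0.20 (q = 3.21e-09). In *lecrk-VI.2-2* it was 9.86, 9.33 and 10.27 with MgCl2 and 7.85, 7.66 and 7.80 with *Psm*, a change of −2.06 ± 0.20 (q = 1.35e-05). The treatments were far apart in each mutant. In the wild type the same probe set went from between 8.99 and 9.56 to 6.87, 7.23 and 7.05. In the MgCl2 arrays both mutants had higher means than the wild type. The member with the largest wild-type reduction, 253971_at, behaved otherwise. Its wild-type levels were 9.31, 9.03 and 8.53 with MgCl2 and 4.44, 5.79 and 5.88 with *Psm*. In *bak1-5* they were 8.67, 9.20 and 8.60 against 7.75, 7.53 and 8.26, and in *lecrk-VI.2-2* they were 8.87, 8.93 and 9.12 against 8.47, 8.11 and 7.95. The treatments did not overlap in either mutant, yet the changes of −0.98 ± 0.30 (q = 0.0553) and −0.79 ± 0.30 (q = 0.323) did not pass the test.

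**Figure D2:**
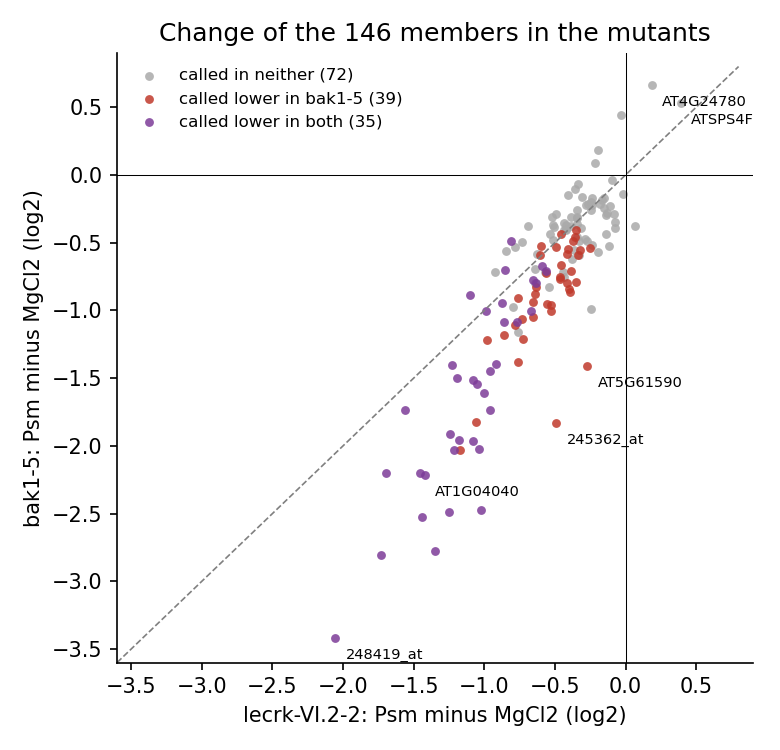
Change with SAR of the 146 members in *bak1-5* (vertical axis, log2) against that in *lecrk-VI.2-2* (horizontal axis, log2), each point being 1 member. The dashed line marks equal change. Members called in both mutants (35) and in *bak1-5* alone (39) lie mostly below the line, and 72 were called in neither. A call in *bak1-5* alone by itself favours a place below the line. Of all 146 members 103 lie below it, against 78 without *lecrk-VI.2-2* MgCl2 replicate 2.

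For description, 40 of the 61 members with a gene were grouped by their known roles, and the other 21 were left ungrouped. The grouping was made after the values had been seen and carries no test. Most loci are named only by their locus code in the annotation, and the roles are background knowledge of the protein families. Acid phosphatases fell in both mutants as well as in the wild type, where the rule required it. Of the 12 secreted, wall and plasma membrane proteins, 9 were called lower in *bak1-5* and 4 in *lecrk-VI.2-2*, with median changes of −1.03 and −0.70. Of the 11 plastid proteins, 6 were called lower in *bak1-5* and 1 in *lecrk-VI.2-2*, with median changes of −0.44 and −0.37. Of the 8 enzymes of metabolism, 2 were called lower in *bak1-5* and 0 in *lecrk-VI.2-2* (limma), with median changes of −0.28 and −0.31. In the wild type these 3 groups had medians of −1.31, −1.17 and −1.08. Among all 146 members, 50.7% were called lower in *bak1-5* and 24.0% in *lecrk-VI.2-2*, against 3.01% and 0.484% of all probe sets. The counts of a group depend on which members were placed in it.

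**Figure D3:**
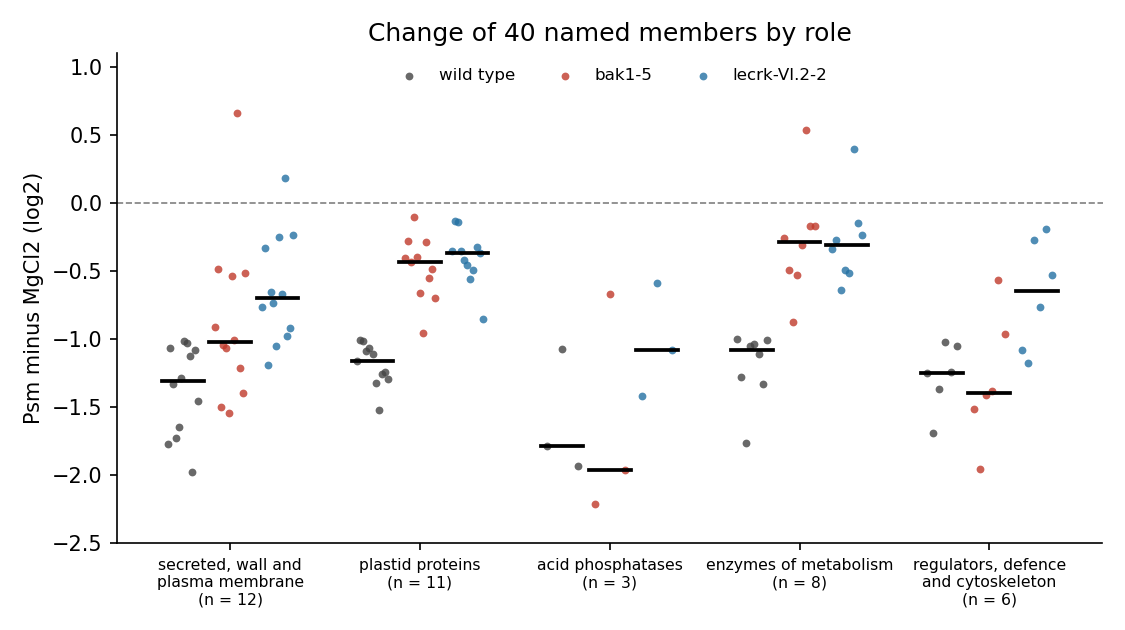
Change with SAR (log2, *Psm* minus MgCl2) of 40 named members in 5 role groups, with a point for each member in each genotype and the group median as a black line. The acid phosphatases have a *bak1-5* median of −1.96, and the mixed group of regulators, defence and cytoskeleton has one of −1.40. The plastid proteins have a *bak1-5* median of −0.44.

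The acid phosphatases, enzymes that release phosphate from organic compounds, comprised 3 members, and all 3 were called lower in each mutant. *AT1G04040*, which encodes a phosphatase of the HAD superfamily, had the lowest change of any named member in both mutants. Its levels in *bak1-5* were 8.18, 7.79 and 8.07 with MgCl2 and 5.95, 5.44 and 6.01 with *Psm*, a change of −2.22 ± 0.20 (q = 7.8e-07). In *lecrk-VI.2-2* they were 7.53, 7.26 and 8.08 against 6.45, 6.21 and 5.94, a change of −1.42 ± 0.20 (q = 0.000837). In the wild type they were 7.30, 7.58 and 7.91 against 5.71, 5.90 and 5.82. The treatments did not overlap in either mutant, and in the wild type the rule required this. The *Psm* levels of *bak1-5* spanned those of the wild type. *AT5G44020*, of the same family, changed by −1.96 ± 0.24 in *bak1-5* (q = 3.52e-05) and by −1.08 ± 0.24 in *lecrk-VI.2-2* (q = 0.0365), against −1.93 in the wild type. The purple acid phosphatase gene *AT1G25230* changed by −0.67 in *bak1-5* and −0.59 in *lecrk-VI.2-2*, against −1.08 in wild-type leaves. The call of *AT5G44020* for *lecrk-VI.2-2* was lost in 10 of 28 alternatives, among them leaving out MgCl2 replicate 1 or 3 or *Psm* replicate 2 or 3, and that of *AT1G25230* (q = 0.01) in 4 of 27.

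Among secreted, wall and plasma membrane proteins, several members were called lower in both mutants. *AT2G34510* encodes a wall protein of the DUF642 family. Its levels in *bak1-5* were 7.47, 7.71 and 7.53 with MgCl2 and 6.13, 6.11 and 5.98 with *Psm*, a change of −1.498 ± 0.13 (q = 4.44e-07). In *lecrk-VI.2-2* they were 7.78, 7.42 and 7.89 against 6.62, 6.53 and 6.37, a change of −1.19 ± 0.13 (q = 4.5e-05). The wild-type change was −1.33. *AT3G61260* encodes a remorin, a scaffold protein on the inner face of the plasma membrane, and changed by −1.55 ± 0.17 in *bak1-5* (q = 1.17e-05) and −1.05 ± 0.17 in *lecrk-VI.2-2* (q = 0.00354). With *Psm* it lay at 6.75 to 7.11 in *bak1-5* and at 7.25 to 7.63 in *lecrk-VI.2-2*, below every MgCl2 array of its own genotype. *SKU5*, a cell-surface glycoprotein of directional growth, changed by −1.40 ± 0.17 (q = 2.49e-05) and −0.92 ± 0.17 (q = 0.00856) in these mutants, against −1.08 in the wild type. The polygalacturonase-like gene *AT4G23820* changed by −1.01 in *bak1-5* and −0.67 in *lecrk-VI.2-2*, against −1.03 in the wild type. The *lecrk-VI.2-2* calls of *SKU5* and *AT4G23820* were lost in 4 of 28 and 5 of 27 alternatives.

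Other proteins of this group were called in *bak1-5* alone or in neither mutant. *AT5G48490* encodes a lipid-transfer protein closely related to DIR1, which is required for long-distance SAR signalling. In the wild type it was at 6.86, 7.21 and 8.49 with MgCl2 and at 5.58, 5.48 and 5.57 with *Psm*. In *bak1-5* it was at 6.61, 6.56 and 7.18 against 5.55, 5.58 and 5.57, a change of −1.22 ± 0.30 (q = 0.0191). In *lecrk-VI.2-2* it was at 6.94, 6.62 and 5.99 against 5.89, 5.21 and 5.50, a change of −0.98 ± 0.30 that did not pass the test (q = 0.179). The *Psm* arrays of all genotypes thus read between 5.21 and 5.89, below the level of 6 under which probe sets are called dim here. No conclusion is drawn from the likeness of these low levels. The MgCl2 levels varied most. *AT2G45180*, another lipid-transfer protein and the brightest named member, went from 11.36–11.50 to 9.97–10.85 in *bak1-5* (change −1.05 ± 0.26, q = 0.0184) and from 11.24–11.53 to 10.58–10.93 in *lecrk-VI.2-2* (change −0.65 ± 0.26, q = 0.384). The *bak1-5* calls of *AT5G48490* and *AT2G45180* were lost in 4 and 6 of 28 alternatives. The aspartyl protease gene *AT1G09750* changed by −0.91 in *bak1-5* (q = 0.00818) and the GDSL lipase gene *AT3G16370* by −1.07 (q = 0.0131), and neither was called in *lecrk-VI.2-2*. *XTH32*, whose product cuts and rejoins xyloglucan of the wall, was called in neither mutant, with changes of −0.52 ± 0.24 and −0.24 ± 0.24.

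The pectate lyase gene *AT4G24780*, whose product cleaves pectin, was the named member with the highest change in *bak1-5*. In the wild type it was at 8.00, 7.91 and 7.60 with MgCl2 and at 6.08, 7.08 and 6.98 with *Psm*. In *bak1-5* it was at 7.16, 6.98 and 7.21 against 7.77, 7.33 and 8.24, with all *Psm* values above all MgCl2 values. The change of 0.66 ± 0.23 did not pass the test (q = 0.0952), and that of 0.18 ± 0.23 in *lecrk-VI.2-2* did not either (q = 0.936). Only 1 other named member, *ATSPS4F*, was above 0 in both mutants. It encodes a sucrose phosphate synthase and changed by 0.53 ± 0.32 (q = 0.387) and 0.39 ± 0.32 (q = 0.847), with treatments that overlapped in both mutants.

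**Figure D4:**
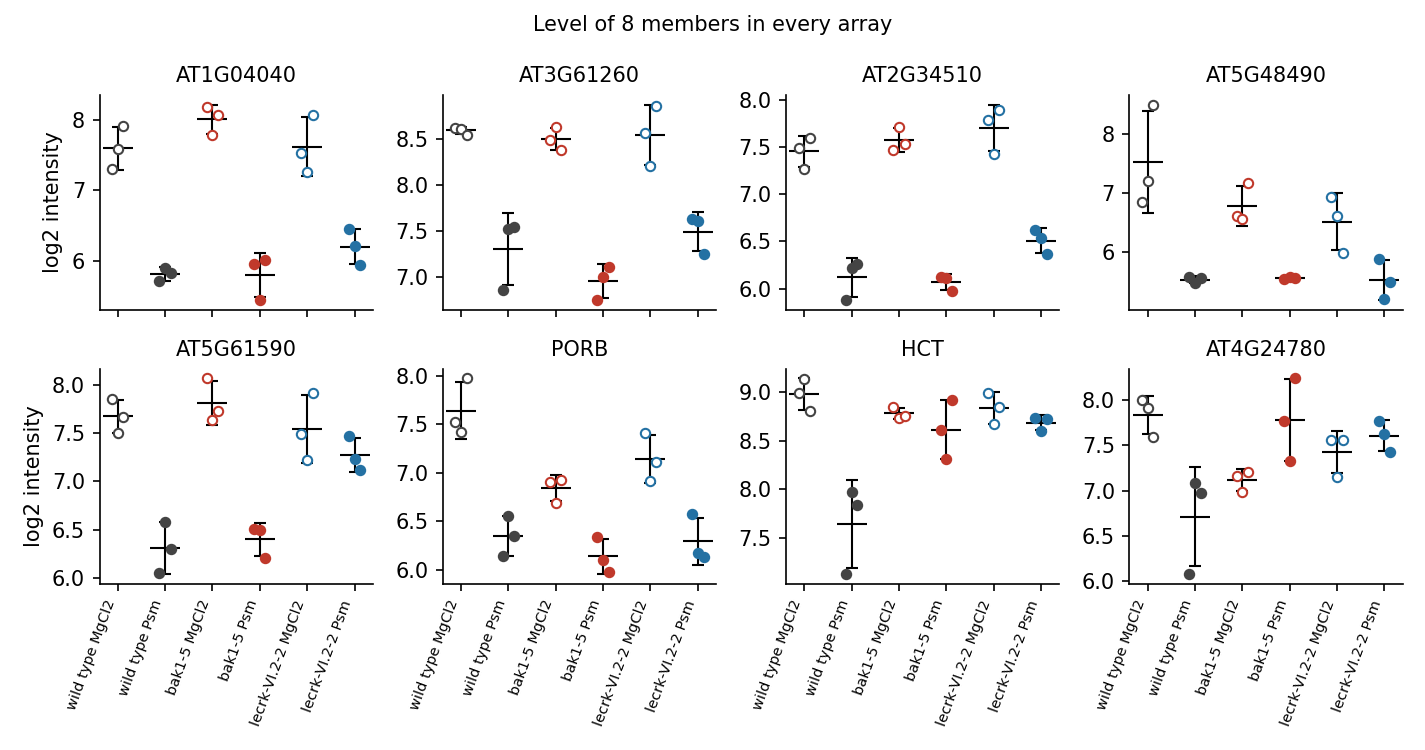
Log2 intensity of 8 members in every array, with open circles for MgCl2, filled circles for *Psm*, and the mean ± SD of 3 arrays in black. *AT1G04040* was low after *Psm* in both mutants, *AT5G61590* in *bak1-5*, and *HCT* and *AT4G24780* in neither. In the wild type the rule required low *Psm* values of all 8.

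The plastid proteins had a smaller median change in *bak1-5* than the groups above. *PORB* and *CHLM* encode the chlorophyll synthesis enzymes protochlorophyllide oxidoreductase and magnesium-protoporphyrin IX methyltransferase. *PORB* was the plastid member called in *lecrk-VI.2-2*, where it was at 7.41, 6.92 and 7.11 with MgCl2 and at 6.58, 6.17 and 6.13 with *Psm*, a change of −0.85 ± 0.16 (q = 0.0102). In *bak1-5* it went from 6.91, 6.69 and 6.93 to 6.34, 6.10 and 5.98, a change of −0.70 ± 0.16 (q = 0.0103). The call of *PORB* in *lecrk-VI.2-2* was lost in 5 of 28 alternatives. Without SAR its level in *bak1-5* lay below the wild-type arrays, which read 7.52, 7.43 and 7.97. *CHLM* changed by −0.49 ± 0.14 in *bak1-5* (q = 0.035) and by −0.37 ± 0.14 in *lecrk-VI.2-2* (q = 0.301), and its call in *bak1-5* was lost when any 1 of 4 *bak1-5* arrays was left out. Of 5 plastid ribosomal proteins, *AT5G24490*, *AT1G29070* and *AT4G17560* were called in *bak1-5*, with changes of −0.95, −0.41 and −0.67, and these calls were lost in 1, 9 and 4 of 28 alternatives. The other 2, *AT4G01310* and *AT2G43030*, had changes of −0.40 and −0.44, and none of the 5 was called in *lecrk-VI.2-2*. *AT5G51010*, a rubredoxin-like protein with a wild-type change of −1.52, changed by −0.29 ± 0.18 (q = 0.385) and −0.49 ± 0.18 (q = 0.282). *AT3G47070*, a phosphoprotein of the thylakoid, was at 9.87 to 9.97 with MgCl2 and 9.75 to 9.90 with *Psm* in *bak1-5*.

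The enzymes of metabolism showed the smallest median change in *bak1-5* among the role groups. *HCT*, a hydroxycinnamoyl transferase of the phenylpropanoid pathway that leads to lignin, was at 8.996, 9.13 and 8.80 in the wild type with MgCl2 and at 7.13, 7.97 and 7.84 with *Psm*. In *bak1-5* it was at 8.85, 8.74 and 8.76 against 8.61, 8.31 and 8.92, and in *lecrk-VI.2-2* at 8.99, 8.67 and 8.85 against 8.73, 8.60 and 8.73. The treatments overlapped in both mutants. The changes were −0.17 (95% interval −0.53 to 0.20) and −0.15 (−0.52 to 0.21). *VTC4*, an ascorbate synthesis phosphatase, changed by −0.17 and −0.24, and *AT1G11860*, the T protein of the glycine cleavage complex of photorespiration, by −0.26 and −0.34, none of them called. The 2 tropinone reductase-like genes *AT2G29290* and *AT2G29310*, which lie on the chromosome with 1 protein-coding gene between them, were both called in *bak1-5*, with changes of −0.88 (q = 0.0178) and −0.53 (q = 0.0476), and neither in *lecrk-VI.2-2*. The call of *AT2G29310* was lost in 15 of 28 alternatives, among them leaving out any *bak1-5* array but *Psm* replicate 3, and that of *AT2G29290* in 5. Array probes cannot always separate such related neighbours.

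The remaining group held regulators, defence proteins and a tubulin, with 5 of 6 called lower in *bak1-5* and 2 in *lecrk-VI.2-2*. Among all members the shares were 50.7% and 24.0%. *AT4G19530* encodes a TIR-NBS-LRR protein, a class of intracellular immune receptors, and changed by −1.51 ± 0.17 in *bak1-5* (q = 1.17e-05) and −1.08 ± 0.17 in *lecrk-VI.2-2* (q = 0.00249), against −1.25 in the wild type. With *Psm* it lay between 5.30 and 5.52 in *bak1-5* and between 5.61 and 5.68 in *lecrk-VI.2-2*. *AT5G44680*, a DNA glycosylase, changed by −1.96 ± 0.28 (q = 0.000158) and −1.18 ± 0.28 (q = 0.047). The call in *lecrk-VI.2-2* was lost in 17 of 28 alternatives. *BZIP61*, a bZIP transcription factor, changed by −1.38 ± 0.22 in *bak1-5* (q = 0.00045) and by −0.76 ± 0.22 in *lecrk-VI.2-2* (q = 0.126), at levels below 6 in all groups. The beta-tubulin gene *TUB5* was called in *bak1-5* alone (−0.96), and *THI2.2*, an antimicrobial thionin, in neither mutant (−0.57 and −0.20).

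Some of the members that changed most have no stated role here. *AT1G13650* had the lowest wild-type change of a named member, with levels of 7.36, 7.53 and 7.25 against 4.25, 5.43 and 5.25. In *bak1-5* it was at 7.45, 7.59 and 7.69 against 6.63, 6.66 and 6.89, and its change of −0.84 ± 0.24 (q = 0.042) lost its call in 14 of 28 alternatives. In *lecrk-VI.2-2* its treatments overlapped, at 7.29 to 7.92 and 6.87 to 7.61. *AT3G60320*, by contrast, changed by −1.47 in the wild type, −1.40 ± 0.16 in *bak1-5* (q = 1.39e-05) and −1.23 ± 0.16 in *lecrk-VI.2-2* (q = 0.000425). *AT5G02160* was called in *bak1-5* (−1.18 ± 0.22, q = 0.00199) and had q = 0.0738 in *lecrk-VI.2-2* (−0.86 ± 0.22). *AT5G16030* was called in neither (−0.83 ± 0.30 and −0.54 ± 0.30).

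The changes in *bak1-5* and *lecrk-VI.2-2* were compared directly. The difference, *bak1-5* change minus *lecrk-VI.2-2* change, had a median of −0.17 and was below 0 in 103 members (70.5%), against a median of −0.03 and 57.4% below 0 over all probe sets. Without *lecrk-VI.2-2* MgCl2 replicate 2, and likewise with array weights, 78 of 146 members were below 0. It was called in 1 member, with a larger reduction in *bak1-5*, against 0.0176% of all probe sets in that direction, and in no member in the other direction, against 0.0132%. At an unadjusted p under 0.05, 18 members (12.3%) differed, against 6.79% of all probe sets. The called member was 245362_at, at 6.34, 6.13 and 5.90 against 4.38, 4.16 and 4.33 in *bak1-5*, and at 5.44, 5.41 and 5.89 against 5.21, 4.96 and 5.09 in *lecrk-VI.2-2*. The treatments did not overlap in either mutant. The difference was −1.34 ± 0.21 (q = 0.0191), and the call was lost when any 1 of 6 arrays was left out, namely *bak1-5* MgCl2 replicates 1 and 2, *bak1-5* *Psm* replicate 2, *lecrk-VI.2-2* MgCl2 replicate 1 and *lecrk-VI.2-2* *Psm* replicates 1 and 3. By contrast 6 members were called without *lecrk-VI.2-2* MgCl2 replicate 3, 3 each without *lecrk-VI.2-2* MgCl2 replicate 2 and without wild-type *Psm* replicate 1, and 2 each without wild-type MgCl2 replicate 3 and without wild-type *Psm* replicate 3.

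Among named members the largest difference belonged to *AT5G61590*, known as *DEWAX*, an ethylene response factor that lowers wax synthesis. In *bak1-5* it was at 8.07, 7.64 and 7.74 with MgCl2 and at 6.50, 6.49 and 6.20 with *Psm*, a change of −1.41 ± 0.17 (q = 2.49e-05). In *lecrk-VI.2-2* it was at 7.49, 7.22 and 7.92 against 7.47, 7.23 and 7.12, a change of −0.27 ± 0.17 (q = 0.738). The treatments were separate in *bak1-5* and overlapped in *lecrk-VI.2-2*. The difference of −1.14 (95% interval −1.64 to −0.64) did not pass the test over all probe sets (q = 0.112). The next named members, *AT5G44020*, *AT1G04040* and *AT5G44680*, had differences of −0.88, −0.79 and −0.78, with q values of 0.624 or more. In the other direction the largest were *AT4G24780* (0.48), *AT1G15260* (0.31), *AT4G28240* (0.27) and *AT3G47070* (0.25), none of them called.

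The levels of the members were also compared directly between the mutants. Without SAR, the median of *bak1-5* minus *lecrk-VI.2-2* was 0.06, and limma called no member lower or higher, against 0.0308% and 0.0396% of all probe sets. At an unadjusted p under 0.05, 10 members (6.85%) differed, against 6.55% of all probe sets, a share near the background. With SAR, a comparison added after the values had been seen, the median difference was −0.10, and 5 members were called lower in *bak1-5*, against 0.0484% of all probe sets, and none higher by limma, against 0.149%. At an unadjusted p under 0.05, 35 members (24.0%) differed with SAR, against 11.7% of all probe sets.

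The largest of these differences with SAR was that of 246114_at, which read 8.19, 8.52 and 8.42 in *lecrk-VI.2-2* against 7.26, 7.26 and 7.004 in *bak1-5* and differed by −1.20 ± 0.16 (q = 0.00236). The others were 256772_at (−0.99, q = 0.0355), 259803_at (−0.90, q = 0.0262), *AT5G61590* (−0.87, q = 0.0355) and 245362_at (−0.80, q = 0.0303). In all 5 the *Psm* values of *bak1-5* lay below those of *lecrk-VI.2-2*. The count of 5 fell to 1 without *bak1-5* *Psm* replicate 1 or 2 or *lecrk-VI.2-2* *Psm* replicate 1 or 3, and to 2 without *lecrk-VI.2-2* *Psm* replicate 2. It was 3 without wild-type *Psm* replicate 3, *bak1-5* MgCl2 replicate 3 or *lecrk-VI.2-2* MgCl2 replicate 1, and 9 without *lecrk-VI.2-2* MgCl2 replicate 2.

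Relative to the wild type, as a description, the median member was at −0.09 in *bak1-5* and at −0.16 in *lecrk-VI.2-2* in the MgCl2 arrays. In the *Psm* arrays it was above the wild type, by 0.48 in *bak1-5* and 0.57 in *lecrk-VI.2-2*. The rule chose members with low wild-type *Psm* values relative to MgCl2, which by itself favours differences in these directions. Over all probe sets the medians for *bak1-5* and *lecrk-VI.2-2* were 0.0099 and −0.0116 with MgCl2, and −0.0001 and 0.0269 with *Psm*.

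Genes of 25 listed pathways and cell types were examined beside the members, 110 entries in all being measured by a probe set with 1 gene, and 3 lists (arabinogalactan and fasciclin-like proteins, aquaporins, and lipid-transfer proteins with GDSL lipases) had none. The lipid-transfer members *AT5G48490* and *AT2G45180* and the GDSL lipase member *AT3G16370* are not among the loci of the last list. Likewise the arabinogalactan protein member *AT4G16980* is not among the loci of the arabinogalactan list. Over all probe sets, 5.54% were called lower in the wild type, 3.01% in *bak1-5* and 0.484% in *lecrk-VI.2-2*. Of 6 genes measured for carbon fixation, photorespiration and chlorophyll synthesis, 5 were lower in the wild type, 2 in *bak1-5* and 1 in *lecrk-VI.2-2*. Every call in a mutant belonged to the members *PORB* and *CHLM*, whose wild-type reduction the rule fixed, and of the 4 other genes 3 were lower in the wild type and 0 in either mutant (limma). The Calvin cycle enzymes *PRK* and *SBPASE* and the photorespiratory enzyme *HPR* changed by −0.79, −0.87 and −0.69 in the wild type, short of the limit for members. In *bak1-5* their changes were −0.02, −0.15 and −0.06, and in *lecrk-VI.2-2* they were −0.02, −0.14 and 0.07. Of 49 names listed for the light-harvesting complexes, the photosystems and the plastid ATP synthase, 5 were measured. Of these 5, 3 were lower in the wild type, with *ATPC1* of the plastid ATP synthase at −0.51, *LHCB4.2* at −0.45 and *PSBY* at −0.44. In either mutant 0 passed the test (limma).

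A few cell wall genes outside the set changed in *bak1-5*. Over all probe sets, 5.54% were called lower in the wild type, and 3.01% lower and 4.08% higher in *bak1-5*. Whether single calls in a list tell of its pathway was not tested. Of 9 measured xyloglucan endotransglucosylase/hydrolases, the member *XTH32* was lower in the wild type, as the rule required. *XTH27* (−1.14) and *XTH16* (−0.71) were lower in *bak1-5*, against −0.19 and −0.25 in the wild type. Of 14 measured expansins, which loosen walls, *EXPB3* was lower in the wild type (−0.45) and *EXLA2* in *bak1-5* (−1.03). *XTH16*, *EXPB3* and *EXLA2* were dim, with all group means below 6, as were 12 of these expansins and 7 of the 9 hydrolases. Of 5 measured cold and drought genes, the dehydrin *COR47* was lower in *bak1-5* (−1.49). The auxin-responsive gene *HAT2* was lower in the wild type (−0.41). Among 11 measured defensin, thionin and ethylene genes, the member *THI2.2* was lower there, as the rule required. *EIN3*, *UGT78D1*, *APS4*, *APL3* and *UGT74B1* were higher in the wild type, by 0.41 to 0.83, and *UGT78D1* and *APS4* in *bak1-5*. *UGT78D1* and *APL3* were also dim. The dim cell cycle gene *AUR2* was lower in *bak1-5* (−0.33). Median changes of the lists with measured genes lay between −0.83 and 0.26 in the wild type. Light harvesting (−0.44) was at the low end, as was the list of carbon fixation, photorespiration and chlorophyll synthesis (−0.83). The latter median includes the members *PORB* and *CHLM*, whose wild-type reduction the rule fixed.

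At the limit of the rule, the last members inside it were *AT1G11860* (−1.002), *VTC4* (−1.006) and 258076_at (−1.009). The first probe sets outside were 251996_at (−0.9998), 258239_at (−0.9972) and *AT1G04680* (−0.997), which differed from the former by far less than the standard error of a change (median 0.11 over all probe sets).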

How the data were processed

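Systemic leaves of 6 groups were profiled on 18 Affymetrix ATH1 arrays. The authors summarised the arrays with RMA in the affy package, and the deposited values are log2 intensities; scanner files were not used here. The study's own significance values were not used. The value table was read as deposited, 64 control probe sets were left out, and 22746 probe sets were fitted with limma 3.58.1 in R 4.3.3, with a mean for each group and 12 residual degrees of freedom per probe set. Benjamini and Hochberg's adjustment was applied over all probe sets. No background or normalization step was repeated; cyclic loess and median centring were tried as alternatives, as were array weights, a filter at a level of 6, other limits and leaving out arrays. Depth has no counterpart on arrays, and 3 arrays per group limit the precision. The comparison of levels with SAR between the mutants was added after seeing the data. The script was tested on simulated data. The labels call the replicates biological. Members, gene lists and role groups were chosen with earlier results of these data known. Named members were, among those with 1 gene, the 12 with the lowest wild-type change, the 6 lowest called in each mutant, the 4 with the largest difference between mutants in each direction, up to 4 of each list and 3 at each side of the limit; others named in the role groups were chosen after their values were seen. The platform annotation gave 1 gene to 13513 probe sets and several to 503. Promoter motifs were not analysed here.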

Additional observations from a re-analysis of the deposited data

Results flagged for a closer look

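For 245362_at, a probe set without a gene in the annotation, the change with SAR differed between *bak1-5* and *lecrk-VI.2-2* by −1.344 log2 units (limma, q = 0.0191), the change being −1.84 in *bak1-5* and −0.49 in *lecrk-VI.2-2*. It was the only member of 146 for which the difference of the changes passed the test. Groups of 3 arrays are too small for a search for outlying samples.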

How the results depend on the processing

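The 3 arrays per group limit every count, and wild-type *Psm* replicate 1 and the *lecrk-VI.2-2* arrays decide several. Leaving out any 1 array gave 50 to 88 members lower in *bak1-5*, 19 to 54 in *lecrk-VI.2-2*, 0 to 6 whose change differed between the mutants and 0 differing without SAR, and 96 to 191 members by the rule itself. With only the arrays compared, *lecrk-VI.2-2* had 18 and the difference 2. Array weights gave 110 in *bak1-5*, 103 in *lecrk-VI.2-2*, 8 for the difference and 2 without SAR. For array weights the share of all probe sets called was not computed, so these counts have no background beside them. The difference was called in 4 members without probe sets below 6, in 8 after cyclic loess, and in 2 without both *lecrk-VI.2-2* arrays with few bright probe sets. At a *q* of 0.01 the counts were 49, 23 and 0, and with a 2-fold limit 39 and 20 for the mutants. With 1 probe set for each of 61 named genes they were 32, 13 and 0. A wild-type limit of −0.8 gave 118 in *bak1-5* of 276, and one of −1.5 gave 24, 13 and 0 of 35. For levels with SAR, added after seeing the data, 5 members differed between the mutants, 1 to 9 when any 1 array was left out, 3 with only the arrays compared, 30 with array weights, 10 after cyclic loess, and 1 each at a *q* of 0.01, with a 2-fold limit, with 1 probe set per named gene and at a wild-type limit of −1.5. The cause of these shifts was not tested. The other counts stayed within 1.5 times.

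Same-numbered arrays did not deviate together (correlations of −0.437 to 0.235), so the numbers were not taken to pair the samples. With a replicate block the counts were 68 in *bak1-5*, 34 in *lecrk-VI.2-2*, 2 for the difference, 0 for levels without SAR and 3 for levels with SAR. Of 110 called changes of single members, 47 kept the call under every alternative run for them, and 0 changed sign under any of these.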
